A study of Apis mellifera with 13 samples.

Results

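Potassium and calcium channel genes that the study listed for VSH behaviour are described here in the antennae of worker honey bees, Apis mellifera. They are 4 of the 13414 genes in each deposited table: LOC413503 (GB41230) and LOC413106 (GB43812), which the study annotates as members of the TWiK family of potassium channels, LOC411036 (GB50377), a potassium channel resembling sup-9 of the nematode Caenorhabditis elegans, and LOC100577376 (GB44647), a voltage-dependent calcium channel subunit of the alpha2delta type with the RefSeq synonym Cava2d2. The genes were selected on their difference between VSH and NVS bees in the study's own analysis of these libraries. Their levels in that contrast are therefore given as a description with no test, and age and the nurse and forager libraries provide the measures that the selection did not use. LOC413106 also belongs to the genes that the study listed for foragers and nurses, so that its levels there are a description as well.

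RNA came from the flagella, the outer segments of the antennae, of pooled bees, with 4 pairs of antennae per sample in the labels and 8 pairs in the study's methods. VSH bees (4 libraries) were tagged workers caught while opening, widening or emptying brood cells that held Varroa mites, and NVS bees (4 libraries) were tagged workers of similar age from the same observation hive that had not been seen at such work. All of them emerged from brood of a single donor colony. Mean ages were 7.5, 9.75, 12.5 and 17 days in VSH1 to VSH4 and 7.5, 9.5, 12.25 and 17.5 days in NVS1 to NVS4. Foragers (FOR, 2 libraries numbered 2 and 3) were pollen carriers taken at the entrance of standard hives, and nurses (NUR, 3 libraries) were workers whose heads were inside cells with young larvae, from 3 hives and with no ages in the labels.

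Potassium channels let potassium leave the cell and hold or restore the negative resting potential of neurons and other excitable cells. Channels of the tandem-pore class, to which the TWiK and sup-9 families belong, carry a leak current that is open at rest and so set how easily a cell fires. Voltage-gated calcium channels admit calcium on depolarisation and trigger transmitter release, and their alpha2delta subunits are extracellular auxiliary proteins that raise the number of channels at the membrane. In the antenna the firing of the sensory neurons that detect odours, taste and touch depends on such channels.

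Values are pseudo-counts, read counts that the authors scaled by Relative Log Expression to a common library size, with VSH and NVS in one table and FOR and NUR in another. Because the tables were normalised apart, levels are compared within a table only, and because transcript lengths were not used, levels are not compared between genes. Column totals were 1.92e+07 to 2.03e+07 in VSH and NVS and 3.36e+07 to 3.47e+07 in FOR and NUR, and as scaled totals they carry no record of sequencing depth. NUR2, VSH4 and NVS2 stood apart from the rest of their groups, with VSH4 at 31.8 and NVS2 at -35.6 on a first principal component that held 21.8% of the variance of their table and NUR2 at 66.1 on one that held 46.8% of its own, against 0.687 for NUR1 and 5.23 for NUR3. Neuronal markers were present in every library. The summed level of the 6 matched of 9 neuronal genes was 20000.2 to 23614 in VSH and 19387 to 22381 in NVS bees, and 38039 to 45043 in FOR and 40471 to 43948 in NUR bees. Or2, the odorant co-receptor of olfactory neurons, ranged over 9550.4 to 13125 in VSH bees and over 9239 to 10645 in NVS bees. In pooled tissue a change in the number of cells of a type cannot be told apart from a change in RNA per cell.

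LOC413503, a tandem-pore potassium channel gene of the TWiK family, was higher in all VSH libraries. It was at 78.4, 110.8, 87.1 and 104.7 in VSH1 to VSH4, against 52.2, 54.1, 48.6 and 46.9 in NVS1 to NVS4. Every VSH library lay above every NVS library, and the NVS libraries were close together. VSH bees averaged 95.2 ± 15.1 (SD, n = 4) and NVS bees averaged 50.5 ± 3.28 (SD, n = 4), a difference of 0.89 (standard error 0.18) in log2(value + 1). Within the age-matched pairs the ratio of VSH to NVS was 1.501, 2.05, 1.79 and 2.23 from the youngest pair to the oldest.

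LOC411036, the sup-9-like channel gene, had a higher mean in VSH bees, with more scatter. It was at 43.1, 35.9, 30.2 and 20.2 in VSH1 to VSH4, against 15.4, 16.0, 22.1 and 9.998 in NVS1 to NVS4. The groups overlapped, since the oldest VSH library lay below NVS3, while each VSH library was above the NVS library of its own age. VSH bees averaged 32.4 ± 9.67 (SD, n = 4) and NVS bees averaged 15.9 ± 4.97 (SD, n = 4), and the log2 difference was 0.98 (standard error 0.33). The ratio of VSH to NVS within pairs was 2.81, 2.25, 1.37 and 2.02 by increasing age.

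LOC100577376, the calcium channel subunit gene, showed a smaller difference. Its values were 230.3, 227.3, 280.9 and 275.9 in VSH1 to VSH4, against 208.2, 149.5, 194.2 and 145.1 in NVS1 to NVS4. The groups did not overlap. VSH bees averaged 253.6 ± 28.8 (SD, n = 4) and NVS bees averaged 174.2 ± 31.7 (SD, n = 4), and the log2 difference was 0.55 (standard error 0.15). The ratio within pairs was 1.11 in the youngest pair, 1.52 and 1.45 in the middle pairs and 1.90 in the oldest pair.

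LOC413106, the other TWiK family gene, was low in the VSH and NVS libraries other than VSH4. It was at 3.71, 0, 2.36 and 33.4 in VSH1 to VSH4, against 3.44, 5.30, 0 and 2.19 in NVS1 to NVS4. The groups overlapped, and VSH2 and NVS3 were listed at 0. The log2 difference was 0.65 (standard error 0.98), and it was -0.29 without VSH4. The gene also passed the filter on low values through VSH4 alone, since its sum was 50.4 over the 8 libraries and 17.0 without VSH4, under the minimum of 20. In the plot of single libraries this gene is the one whose VSH mean rests on 1 point.

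**Figure D1:**
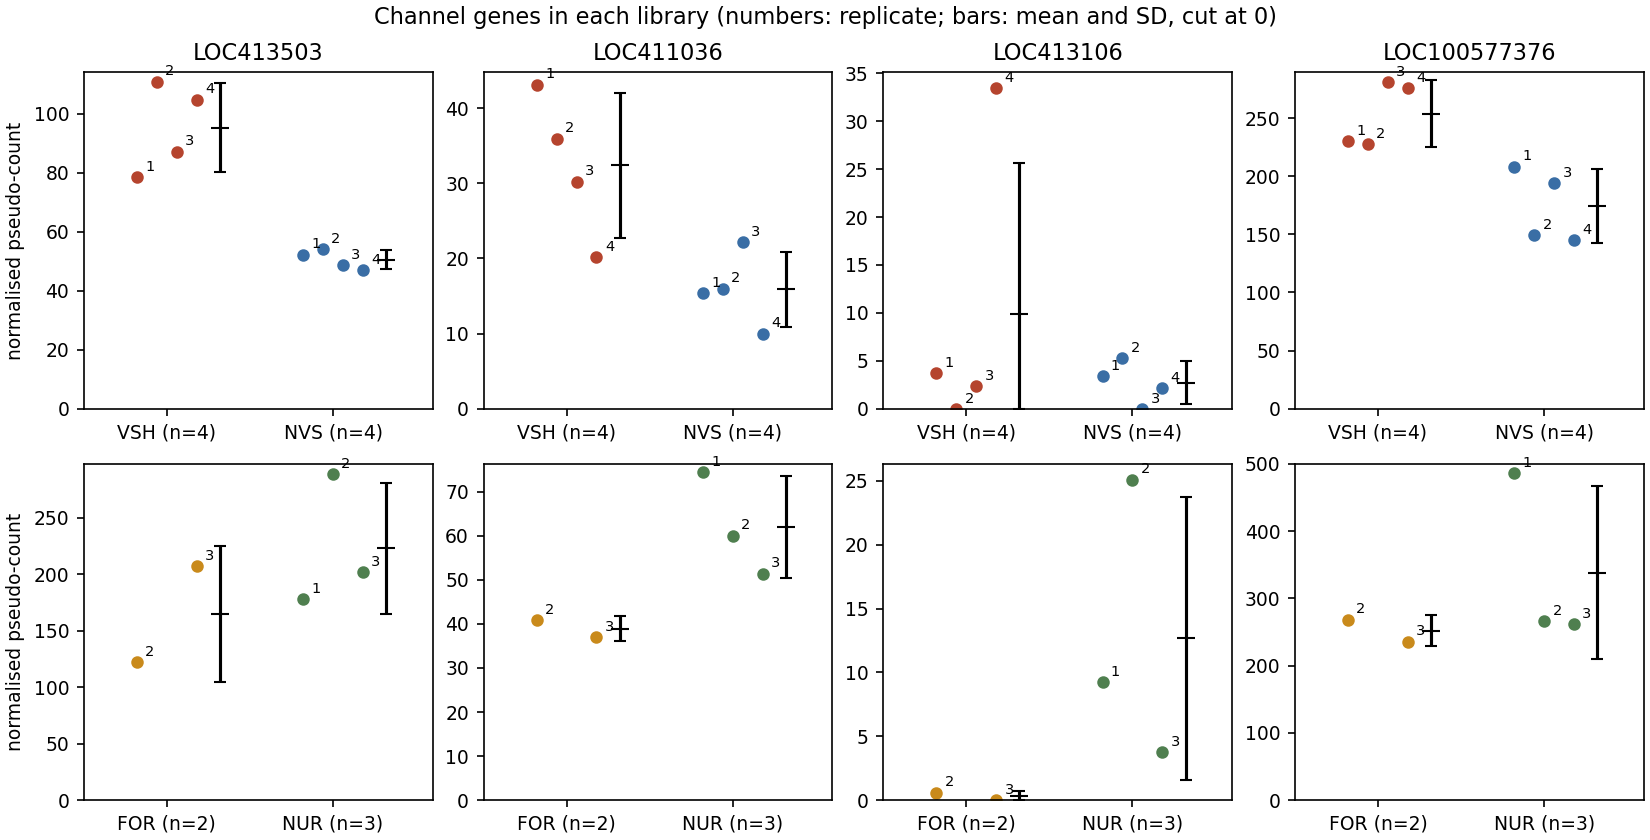
Normalised pseudo-counts (y axis, linear from 0) of the 4 channel genes in each library, VSH and NVS in the upper row and FOR and NUR in the lower row; points are libraries with their replicate number, and black bars are the mean and SD, cut at 0. LOC413503 and LOC100577376 separate VSH from NVS libraries, the contrast on which they were selected. LOC413106 is at 33.4 in VSH4 and at 5.30 or less in the other 7 libraries of that table. In the lower row LOC411036 and LOC413106 are lower in both FOR libraries than in the 3 NUR libraries, as are 16.5% of all genes. LOC413106 is also in the study's forager and nurse list and passed the filter there through the nurses.

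Among the 10204 genes tested in this table, those not overlapping between groups with VSH above NVS made up 2.86%, and 2 of the 4 channel genes were of that kind. VSH was above NVS in all 4 age-matched pairs in 11.5% of genes and in 3 of the 4 channel genes, with LOC413106 as the exception. The differences of the 4 genes lay above those of 95.9% to 98.7% of all genes tested, and their median log2 difference was 0.77, beside -0.0024 over all genes. As the genes were selected on this very contrast, nothing is read from these shares.

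Age was not part of the selection, and it was followed over the 8 VSH and NVS libraries with the group as a term beside the mean age in days. None of the 4 genes passed the threshold for age in limma (adjusted p at most 0.05 over all genes), which 0.147% of all genes did. An unadjusted p under 0.05 was found in 0 of the 4, as against 12.3% of all genes. LOC411036 came nearest. It had its highest value in the youngest VSH bees, 43.1, and was lower in each older VSH library, down to 20.2, whereas in NVS bees it was highest at 12.25 days and lowest at 17.5 days. Its slope was -0.081 log2 units per day (standard error 0.041, 95% interval -0.17 to 0.0065, adjusted p = 0.445 from limma), with -0.11 within VSH and -0.056 within NVS bees. The slope rested on the oldest bees, since without pair 4 it was -0.00035 (standard error 0.086). The slopes in VSH and NVS were not shown to differ (difference -0.054, standard error 0.084, adjusted p = 0.999 for the interaction in limma).

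The other slopes were no larger than their standard errors. LOC413503 had a slope of 0.0029 per day (95% interval -0.052 to 0.058, adjusted p = 0.9752), with 0.027 within VSH and -0.019 within NVS bees. LOC100577376 had a slope of -0.0036 (95% interval -0.048 to 0.041, adjusted p = 0.960), with 0.033 within VSH and -0.036 within NVS bees. In both genes the within-group slopes were of opposite sign. The interaction of group and age had an adjusted p of 0.999 from limma in each of the 4 genes. LOC413106 had a slope of 0.13 (95% interval -0.16 to 0.42, adjusted p = 0.723) that was -0.087 without VSH4.

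**Figure D2:**
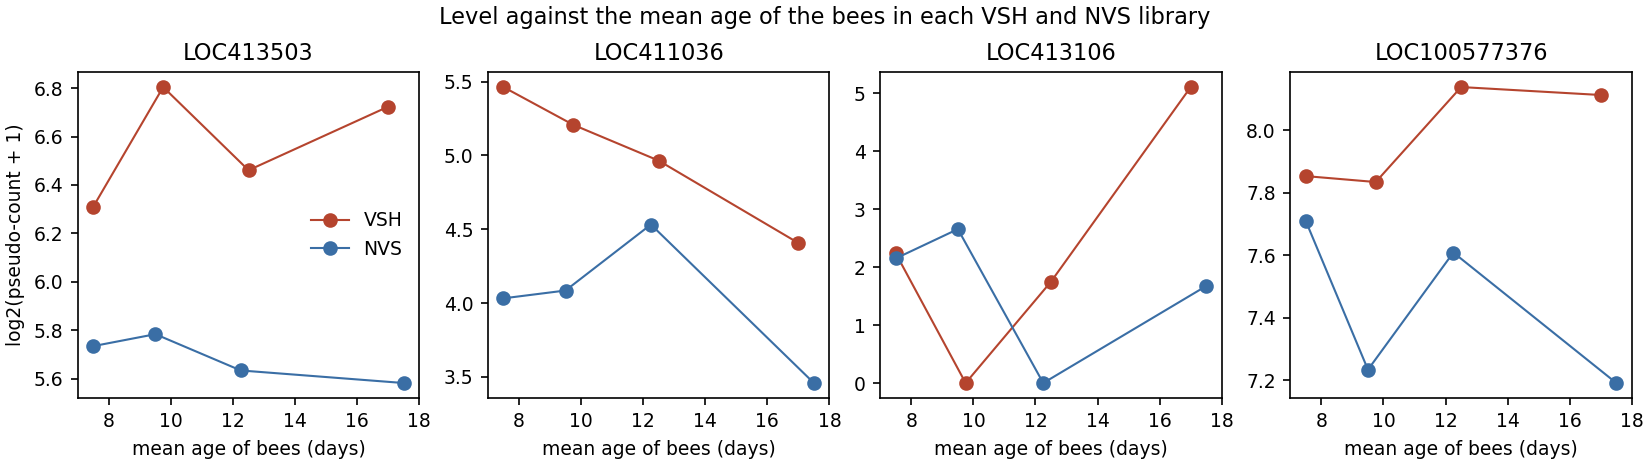
Level of the 4 channel genes as log2(pseudo-count + 1) (y axis, not starting at 0) against the mean age of the bees in days (x axis), with a point for each VSH and NVS library and lines joining the libraries of a group. LOC411036 is lower in each older VSH library, from 43.1 to 20.2 pseudo-counts, and the VSH line of LOC413503 and of LOC100577376 stays above the NVS line at all 4 ages.

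Foragers and nurses are other bees, from other hives, sequenced in a separately normalised set. The 3 genes that could be tested had lower mean log2 levels in foragers than in nurses, in a table where 50.1% of the 10436 genes tested had a positive difference. None of the 3 passed the threshold in limma, which 0.0958% of all genes did, and 0 of the 3 had an unadjusted p under 0.05. With 2 libraries against 3, genes with both FOR libraries below all NUR libraries made up 16.5% of all genes, and 32.6% did not overlap in either direction. Of the 3 genes, 1 (LOC411036) had both FOR libraries below all NUR libraries. Markers of other cells differed between the same libraries, and their part in these levels was not tested. The 4 haemocyte genes summed to 1517 to 2039 in FOR and 2788 to 3263 in NUR bees. The 3 genes of mechanosensory cilia summed to 2671 to 2684 in FOR and 1261 to 1778 in NUR bees. Neither sum overlapped between the groups, but single genes of both lists did, such as Hml among the haemocyte genes and NompC among the cilia genes. The muscle, hypopharyngeal gland and photoreceptor sums did not overlap either. Those of olfactory neurons, neurons, glia, support cells and fat body did.

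LOC411036 was at 40.9 and 37.0 in FOR2 and FOR3, against 74.5, 60.1 and 51.4 in NUR1 to NUR3. The means were 38.9 ± 2.76 (SD, n = 2) in FOR and 62.0 ± 11.7 (SD, n = 3) in NUR bees. The log2 difference was -0.64 (standard error 0.38, 95% interval -1.55 to 0.26, adjusted p = 0.535 from limma), and it lay between -0.77 and -0.50 with any single library left out. The gene was thus below its nurse levels in both forager libraries by less than the fit could separate from its spread.

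LOC413503 was at 122.1 and 206.9 in FOR2 and FOR3, against 178.1, 288.5 and 201.8 in NUR1 to NUR3. FOR3 lay among the nurse libraries. The log2 difference was -0.45 (standard error 0.34, 95% interval -1.26 to 0.35, adjusted p = 0.621 from limma), and it was -0.83 without FOR3 and -0.076 without FOR2. The size of the difference thus rested on which forager library was kept.

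LOC100577376 was at 268.2 and 235.5 in FOR2 and FOR3, against 486.2, 266.6 and 261.1 in NUR1 to NUR3. NUR1 was far above the other 4 libraries, which lay close together. The log2 difference was -0.36 (standard error 0.32, 95% interval -1.11 to 0.39, adjusted p = 0.677 from limma), and without NUR1 it was -0.070.

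LOC413106 was at 0.582 and 0.0048 in FOR2 and FOR3, against 9.23, 25.1 and 3.77 in NUR1 to NUR3. Both forager libraries were under 1, and NUR2 held most of the nurse signal. The sum was 0.587 over the FOR libraries and 38.1 over the NUR libraries, so that the gene passed the minimum of 15 through the nurses. The log2 difference was -3.10 (standard error 0.998), and without NUR2 it was -2.47. At such low values this difference depends on the pseudocount, with -3.79 at a pseudocount of 0.5 and -1.75 at a pseudocount of 4.

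The libraries with the most LOC413106, VSH4 and NUR2, were also those with the most Vg, the gene of the yolk protein vitellogenin made by the fat body. Vg was at 203.9, 123.1, 74.7 and 2146 in VSH1 to VSH4, against 69.4 to 89.6 in NVS bees, and at 43.9 and 85.4 in FOR2 and FOR3, against 149.3, 577.8 and 104.6 in NUR1 to NUR3. The 6 matched of 7 fat body and haemolymph genes summed to 1491 to 4756 in VSH and 1117 to 1482 in NVS bees, with the maximum in VSH4, where 4 of the 6 genes had their highest value of the 8 libraries and HEX70b, a storage protein gene, was within its range at 10.3. The same sum was 2717 to 2808 in FOR and 2255 to 3449.8 in NUR bees, with the maximum in NUR2, where 3 of the 6 genes were highest and Hex110, another storage protein gene, was lowest at 0.095. Of the 7 matched muscle genes, 5 had their highest value of the 8 libraries in VSH4, while Scp1 and TpnCIIb did not. In NUR2, 1 of the 7 was the highest of its table, TpnCIIb at 104.1. Mp20, a muscle protein gene, was at 305.4 in VSH4, at 6.45 or less in VSH1 to VSH3 and at 12.8 or less in NVS bees, and it was listed at 0 in all NUR libraries. The 7 matched of 14 muscle genes summed to 864 to 1946 in VSH and 846 to 994 in NVS bees, and to 1717 to 1916 in FOR and 1479 to 1577 in NUR bees. The part of fat body or muscle RNA in the level of LOC413106 was not tested. Para, the voltage-gated sodium channel gene of neurons, was at 10771 in VSH4 and at 8832 to 11034 in the other libraries of its table. Of the 6 matched neuronal genes, 1 had its highest value of the 8 libraries in VSH4, Csp at 949.0, and 5 did not. In NUR2, 2 of the 6 were the highest of their table, Rdl at 4052 and brp at 1994. Or2 and 2 of the 3 genes of mechanosensory cilia were also highest in VSH4, Or2 at 13125.

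**Figure D3:**
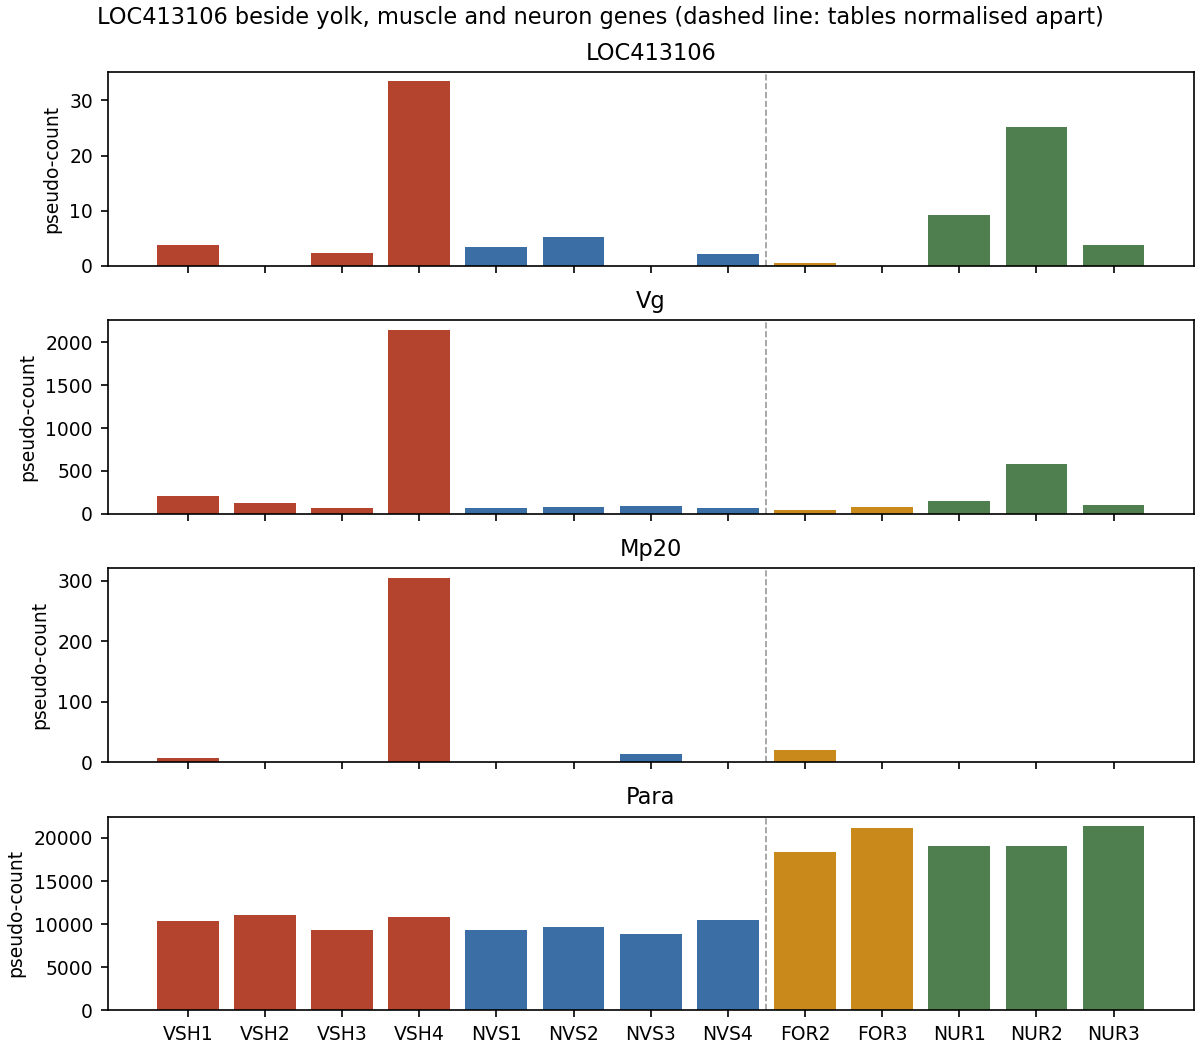
Pseudo-counts (y axes, linear from 0) of LOC413106, the yolk protein gene Vg, the muscle gene Mp20 and the neuronal sodium channel gene Para in the 13 libraries, with 1 bar per library; the dashed line parts the 2 tables, which were normalised separately. LOC413106 and Vg have their highest bars in VSH4 (33.4 and 2146) and NUR2 (25.1 and 577.8), Mp20 is high in VSH4 alone at 305.4, and Para is at similar levels in the libraries of a table. Some other neuronal genes, not drawn, are highest in these libraries, Csp in VSH4 and Rdl and brp in NUR2. HEX70b of the fat body list and Scp1 and TpnCIIb of the muscle list, not drawn, are not highest in VSH4.

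In the gene models of a later assembly (Amel_HAv3.1, used for names and neighbours alone) LOC411036 and LOC100577376 overlapped no other gene. LOC413503 overlapped 3 genes and LOC413106 overlapped 2. How reads in shared exons were treated is not known, since the strand and overlap settings of the counting are not given in the sources used here. Of those overlapping LOC413503, LOC725123 was at 3.61 or less and LOC102656234 at 7.92 or less in every library. LOC102654212, which overlaps LOC413106, was at 3.08, 5.54, 8.07 and 9.33 in VSH1 to VSH4, against 8.31, 9.15, 10.1 and 15.1 in NVS1 to NVS4. In VSH4 it was within the range of the NVS libraries, and its highest value was in NUR2, at 39.7, against 5.04 and 5.28 in FOR2 and FOR3 and 2.60 and 3.98 in NUR1 and NUR3.

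A further 17 potassium and calcium channel genes were found by symbol, synonym or description, and 15 of them passed the filters of both tables. Hk and Slob, which encode auxiliary proteins of potassium channels in Drosophila, were listed at 0 in all 13 libraries. LOC100578151, found through its description in a list of the study, is left out of the counts that follow, which are over 14 genes. They include LOC100578899, LOC408841 and LOC551454, added by synonym once the reference names had been read, with earlier results of these data known. Between VSH and NVS bees 12 of the 14 had a positive and 2 a negative log2 difference, as against 49.4% of all genes that were positive, with a median of 0.097 beside -0.0024 over all genes. None passed the limma threshold (0 of 14, as against 0.0392% of all genes), and unadjusted p was under 0.05 in 3, all of them positive, as against 11.2% of all genes in either direction. Of these 3, LOC100578899 and LOC551454 were among the added genes and Shaw was not. In the fit with age-matched libraries paired as blocks, which called 1.24% of all genes, 1 gene passed, and it was among the added genes.

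That gene was LOC100578899 (GB55480), with the synonym Cav1a, a pore-forming subunit of an L-type calcium channel. It was at 712.6, 776.0, 621.3 and 855.5 in VSH1 to VSH4, against 601.1, 532.2, 522.8 and 617.9 in NVS1 to NVS4. All VSH libraries were above all NVS libraries, as in 2.86% of all genes tested. VSH bees averaged 741.3 ± 99.1 (SD, n = 4) and NVS bees averaged 568.5 ± 48.0 (SD, n = 4), a log2 difference of 0.38 (standard error 0.11, adjusted p = 0.244 from limma, 0.0488 with the pairs as blocks). Of the other pore-forming subunits, Cac, the presynaptic channel gene, had a log2 difference of 0.0085 (adjusted p = 0.987) and LOC551883, with the synonym Cav3, one of 0.045 (adjusted p = 0.882).

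The alpha2delta genes form a family of 3 in these tables, with LOC408841 (GB44648, Cava2d1) and LOC551454 (GB43239, Cava2d3) beside LOC100577376. LOC408841 lies next to LOC100577376 on the later assembly. LOC408841 and LOC551454, both added late by synonym, had positive log2 differences between VSH and NVS bees, as had 49.4% of all genes. These were 0.13 for LOC408841 (adjusted p = 0.554 from limma) and 0.30 for LOC551454 (adjusted p = 0.391). LOC100577376, at 0.55, was selected on this contrast, so that its sign adds nothing. All 3 had negative log2 differences between FOR and NUR bees, where 50.1% of all genes had positive ones. LOC551454 was at 690.2 and 686.4 in FOR2 and FOR3, against 1215, 1393 and 1238 in NUR1 to NUR3, a log2 difference of -0.89 (standard error 0.13, adjusted p = 0.103 from limma). LOC408841 was at 1883 and 2607 in FOR2 and FOR3, against 2970, 2992 and 2936 in NUR1 to NUR3, a log2 difference of -0.42 (standard error 0.15, adjusted p = 0.325). In both of these genes the forager libraries were below every nurse library, as in 16.5% of all genes, and neither passed the threshold. Ca-beta (GB40089), the intracellular auxiliary subunit gene, was at 0.16 between VSH and NVS bees (adjusted p = 0.503) and at 0.20 between FOR and NUR bees (adjusted p = 0.628).

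**Figure D4:**
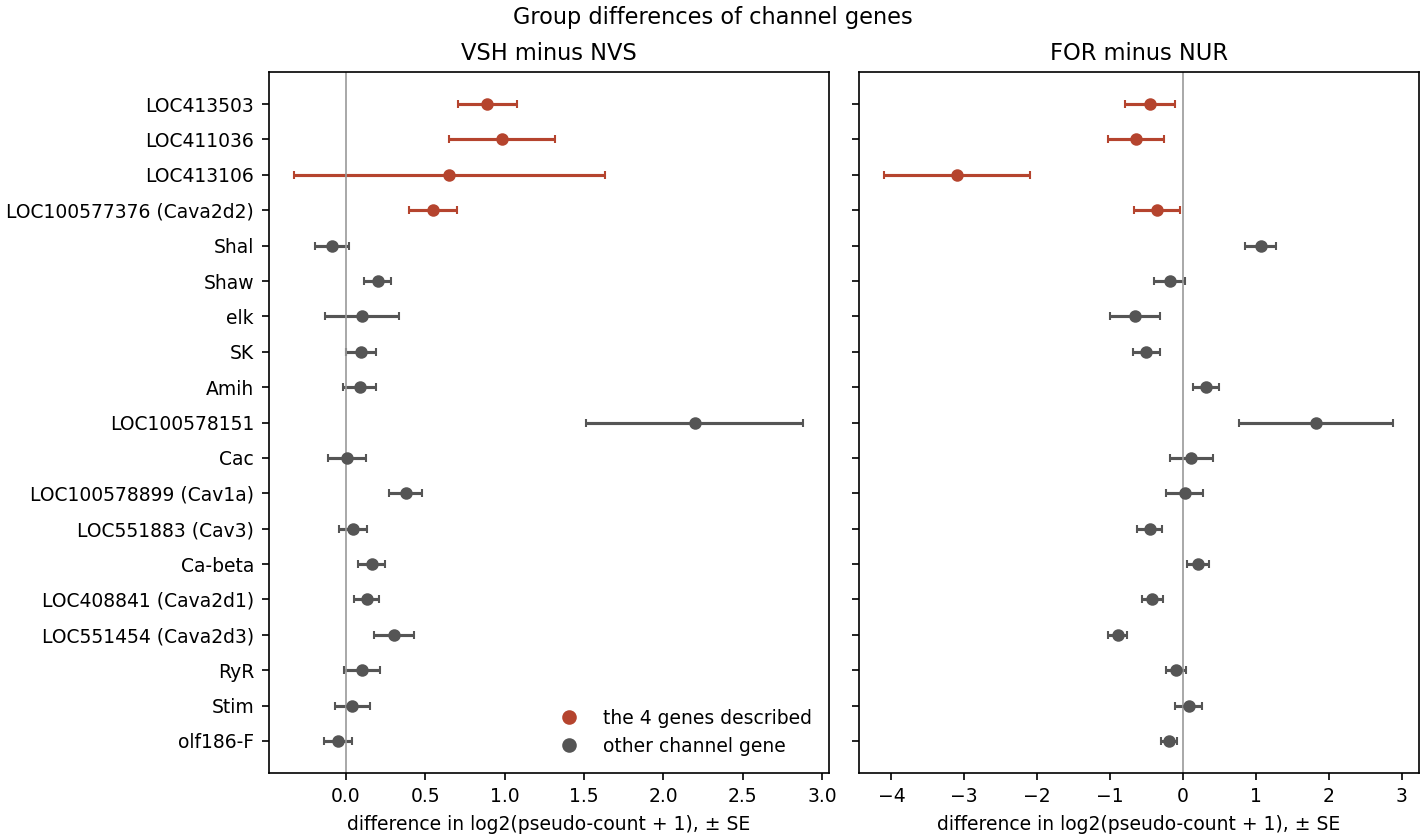
Differences in log2(pseudo-count + 1) between VSH and NVS bees (left) and between FOR and NUR bees (right), with points for single genes and bars for the standard error; red marks the 4 genes described and grey the 15 other channel genes tested. The 4 genes are positive on the left, where they were selected, and negative on the right. LOC551454 (-0.89) and Shal (1.06) lie furthest from 0 among the well expressed grey genes on the right. LOC413106 and Shal are in the study's forager and nurse list, so that their points on the right are descriptions. LOC413106 passed the filter there through the nurses.

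No potassium channel gene of another class passed the threshold between VSH and NVS bees. Shaw (GB49882), a voltage-gated channel gene, averaged 577.1 ± 30.4 in VSH bees and 501.9 ± 31.9 in NVS bees (SD, n = 4 each), a log2 difference of 0.20 (adjusted p = 0.396 from limma). The calcium-activated SK (GB45070), the ether-a-go-go-like elk (GB54716) and the hyperpolarisation-activated Amih (GB47876) were at 0.095, 0.10 and 0.087 (adjusted p = 0.736, 0.904 and 0.781). Shal (GB42249), another voltage-gated channel gene, was negative at -0.086 (adjusted p = 0.799 from limma), with means of 2596 in VSH and 2775 in NVS bees. LOC100578151 (GB46674), found through its description in the study's forager and nurse list as a hyperpolarisation-activated channel, was at 8.52, 4.80, 4.40 and 4.71 in VSH1 to VSH4, against 2.81, 0, 0 and 0.0096 in NVS1 to NVS4. It passed the minimum sum of 20 through the VSH libraries, with sums of 22.4 in VSH and 2.82 in NVS bees, so that its log2 difference of 2.197 (standard error 0.68) is a description.

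Between FOR and NUR bees 5 of the 13 channel genes outside the study's list for these libraries were positive and 8 negative, with a median of -0.19 beside 0.00037 over all genes. The threshold was passed by 0 of them in limma, and unadjusted p was under 0.05 in 4, all of them negative, as against 13.003% of all genes in either direction. Of these 4, LOC408841 and LOC551454 were among the genes added late by synonym, while SK and LOC551883 were not. Shal (GB42249), which encodes a channel of the transient A-type potassium current and is in that list, was at 6300 and 10156 in FOR2 and FOR3, against 3848, 3374 and 4322 in NUR1 to NUR3. Its log2 difference was 1.06 (standard error 0.21), given as a description. SK was at 2391 and 3172 in FOR2 and FOR3, against 4260, 3198 and 4396 in NUR1 to NUR3, a log2 difference of -0.51 (adjusted p = 0.337). LOC551883 was at 3244 and 3937 in FOR2 and FOR3, against 4026, 5448 and 5426 in NUR1 to NUR3, a log2 difference of -0.46 (adjusted p = 0.337).

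For age, 10 of the 14 slopes were positive and 4 negative, and limma called 0 of them, while unadjusted p was under 0.05 in 3, as against 12.3% of all genes. These were Shal, with a slope of 0.034 log2 units per day (standard error 0.012, adjusted p = 0.265), Ca-beta, with 0.024 (adjusted p = 0.359), and Amih, with 0.028 (adjusted p = 0.370). LOC551883 had the fourth smallest p, with a slope of -0.020 (adjusted p = 0.490). None of the genes of calcium stores passed the threshold, with RyR, the ryanodine receptor gene, at 0.10 between VSH and NVS bees (adjusted p = 0.770), Stim, the store sensor gene, at 0.042 (adjusted p = 0.914) and olf186-F, the store-operated channel gene known as Orai, at -0.050 (adjusted p = 0.863).

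The 4 genes were also compared with each other and with all genes of a mean of at least 10 in both tables, by Pearson's r of log2(value + 1) over the 13 libraries, each table centred on its own gene means. These coefficients describe libraries of 4 groups that share the group differences given above, and they carry no test. Among the 4 genes r was highest for LOC411036 and LOC100577376 at 0.68, followed by LOC413503 and LOC411036 at 0.60 and by LOC413503 and LOC100577376 at 0.43. The last pair was at 0.79 over the 8 VSH and NVS libraries and at -0.16 over the 5 FOR and NUR libraries. LOC413106 was below the mean of 10 and was at 0.092 to 0.37 with the other 3.

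Of 9298 genes, those most like LOC413503 were LOC102654715 (r = 0.95), bif (GB49129, r = 0.93), and LOC726101 (GB44590, r = 0.91), and the least like was LOC552180 (GB51746, r = -0.93). Those most like LOC411036 were LOC102653740 (r = 0.90), LOC100577180 (r = 0.84) and LOC724397 (GB55054, r = 0.83), and the least like was LOC102656314 (r = -0.88). Those most like LOC100577376 were Su(var)3-9 (GB47635, r = 0.92), LOC100578123 (GB44451, r = 0.86) and Or63 (GB50052, r = 0.85), an odorant receptor gene. The least like LOC100577376 was LOC726913 (GB45034, r = -0.89). No gene of the channel list was among them.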

How the data were processed

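Antennal RNA of 13 libraries (4 VSH, 4 NVS, 2 FOR, 3 NUR) was measured by RNA-seq. Per the labels and the study's methods, the authors processed reads with CASAVA 1.8.2 and FastQC, aligned with TopHat2 (Bowtie2 2.2.3), counted by HTSeq and deposited edgeR pseudo-counts (unit signal) scaled by Relative Log Expression, 1 table per experiment. These are not whole reads, so count tests were not run, and the depth per library is not recorded in the tables and was not used here. Values below 1e-10 were set to 0. Genes with a sum of at least 20 (VSH, NVS) or 15 (FOR, NUR) were fitted with limma 3.58.1 in R 4.3.3 (eBayes with trend) on log2(value + 1), two-sided, and p-values were adjusted by Benjamini-Hochberg across every gene in the fit. The scripts were tested on simulated data. P-values measure the spread between pooled samples.

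The 4 genes and the lists were chosen with earlier results of these data known. The channel genes Cav1a, Cava2d1 and Cava2d3 were added by synonym once the reference names had been read. Named genes are the 4 genes, listed channel genes past the threshold, those with the 4 smallest p per fit, those in the study's tables and the genes most like each of the 4. A few further list members are named for their function. Of 13414 genes, 10485 matched the reference gene table by ID. Deviations from group means, in 8133 genes (minimum mean 50), correlated at 0.161, 0.215, 0.276 and 0.388 in pairs 1 to 4, which the study matched by age; VSH1 correlated more with NVS2 (0.279) than with NVS1, and VSH2 with NVS1 at 0.132. Alternatives were other pseudocounts, filters and scalings, a replicate block, age as a covariate or on a log2 scale, and leaving out each library. Leaving out pair 4 was added after the data were seen.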

Additional observations from a re-analysis of the deposited data

Results flagged for a closer look

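LOC413106 was at 33.4 in VSH4, which stood alone in its group: the gap to the next VSH library took up 0.889 of the range of the 4 VSH values, above Dixon's 95% critical value. Of 8 groups checked in this way (the 4 genes in VSH and in NVS bees), this was the one that passed. Chance flags about 5% of groups in general, a rate that does not hold here, because the gene was kept by the filter through VSH4 and was selected on this contrast. Vg and Mp20 were highest in VSH4 as well, and so were Or2 and the neuronal gene Csp. HEX70b of the fat body list and Scp1 and TpnCIIb of the muscle list were not. The part of any of these cells in the value of LOC413106 was not tested.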

How the results depend on the processing

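The log2 differences of the 4 channel genes between VSH and NVS bees moved by less than the spread between libraries under all alternatives run, and those between FOR and NUR bees stayed negative in all of them, short of the threshold for the 3 genes tested; with a minimum mean of 10, LOC413106 could not be fitted. Without single libraries the difference of LOC413106 between VSH and NVS bees was -0.29 to 1.41. The age slopes of LOC413503 and LOC100577376, near 0 in the main fit, changed sign under some alternatives. That of LOC413106, at 0.13 in the main fit, did so too. LOC413503 was at -0.015 with quantile normalisation and at -0.014 to 0.018 without single libraries. Without pair 4 LOC411036 was at -0.00035 in place of -0.081, LOC413106 at -0.27 and LOC100577376 at 0.025, and without single libraries LOC413106 and LOC100577376 were at -0.087 to 0.22 and at -0.019 to 0.025. Paired as a replicate block, VSH and NVS gave 127 genes over the threshold in place of 4. The channel list then had 1 in place of 0, a gene added late by synonym. With no filter 2 genes passed. For age, 15 genes became 0 with no filter or without pair 4 and 32 with log2 of age. For FOR and NUR, 10 became 4 at a pseudocount of 0.5, with no filter or with a mean of at least 10, and 6 with the replicate block. Without single libraries these counts were 0 to 11, 0 to 61 and 0 to 76 (highest without NVS2, VSH3 and NUR2). The causes were not tested. Depth per library is not recorded in these tables, so that no limit for the low values of LOC413106 could be set.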
